A study of Mus musculus with 4 samples.

Results

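The matrix-degrading metalloproteinases and their inhibitors were examined in mouse Ly6C-high monocytes cultured for 24 h with all-trans retinoic acid (RA) or its solvent DMSO. Members were all probe sets with a single annotated gene symbol that named an Mmp, Adamts or Timp gene, or Adam8, Adam9, Adam10, Adam15, Adam17 or Adam19. This gave 56 probe sets of 50 genes, out of 22180 genes with a probe set of their own: 22 Mmp genes, 6 Adam genes, 18 Adamts genes and 4 Timp genes. A further probe set names Mmp24 together with another gene and was not a member.

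There were 2 groups of 2 arrays each. The RA group had 100 nM RA from the start of culture, and the DMSO group had the solvent alone. Cells of both groups were enriched and sorted from the pooled bone marrow of 3 mice and grown with 20 ng per ml of GM-CSF and as much interleukin 4, cytokines that drive monocytes toward dendritic cells. The labels give no strain, sex or age, and do not say whether the 2 arrays of a group came from separate cultures or separate pools, so the p-values reflect a spread between samples that could be technical.

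Matrix metalloproteinases (Mmp) are zinc enzymes that cut collagens, elastin and other matrix proteins. Most are made as inactive proenzymes that other proteases, such as furin, plasmin or cathepsins, can activate. Adam proteins are membrane-anchored relatives, several of which release the outer parts of cytokines and receptors from the cell surface. Adamts proteins are secreted relatives that act on proteoglycans and procollagens, and the Timp proteins block many of these enzymes. Monocytes and macrophages use them to cross tissue, remodel matrix and shed surface molecules.

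Of the 56 member probe sets, RA raised 1 (Mmp9) and lowered 3 (Adam8, Mmp25 and Adam15) at a limma adjusted p under 0.05, and 52 did not pass. These are shares of 1.79% higher and 5.36% lower. Over all 39720 tested probe sets the shares were 0.904% higher and 1.19% lower, and over the 23521 with a single symbol 1.23% and 1.73%. The members were chosen with earlier results of these data known, so these shares are not a test of the families. The median log2 difference of the members was 0.03, against -0.006 over all tested probe sets. The adjusted p of Mmp9 and Adam15 lay just under the threshold, at 0.0494 and 0.0482. Those nearest above it were Mmp12 and Mmp19, at 0.0938 and 0.094. None of Mmp9, Adam8, Mmp25 and Adam15 passed when 1625 probe sets with a constant value were kept in the fit. The calls also did not hold when any 1 of the 4 arrays was left out. Such fits have 1 array in a group, and most calls over all probe sets were lost in them too. In these fits the log2 difference ran from 0.83 to 1.19 for Mmp9 and from -1.60 to -1.47 for Adam8. It ran from -1.32 to -1.13 for Mmp25 and from -0.83 to -0.62 for Adam15.

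**Figure D1:**
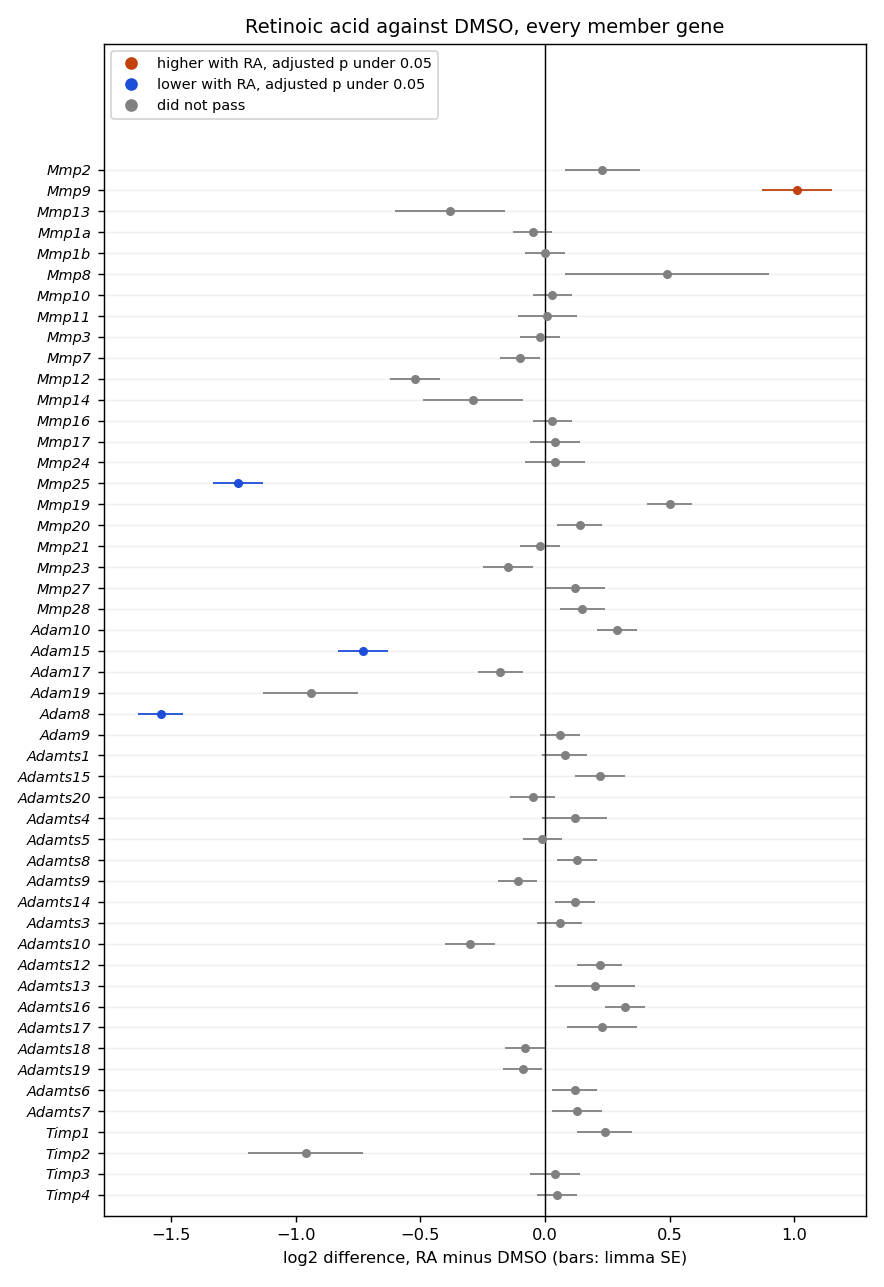
Log2 difference, RA minus DMSO, of each of the 50 member genes in order of role (points, with limma's standard error as bars, n = 2 arrays each). Mmp9 is the single gene marked as higher, Adam8, Mmp25 and Adam15 are the 3 marked as lower, and the other 46 are grey.

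Many members were dim in these cells. As a guide to dim levels, the 95th percentile of 1405 olfactory and vomeronasal receptor probe sets was used, a log2 intensity of 6.35. Such receptors belong mainly to sensory neurons. Intensities of different probe sets depend on their probes and are not compared here as amounts of RNA. Of the 50 genes, 22 lay above this level on all 4 arrays, 23 on none and 5 on some. For the 23 dim genes the differences ran from -0.38 to 0.22, and a response of these genes could not be read from such values. The groups of arrays did not overlap for 14 probe sets higher and 16 lower with RA (25.0% and 28.6%). Over all tested probe sets the corresponding shares were 20.7% and 23.3%, so lack of overlap alone was common.

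**Figure D2:**
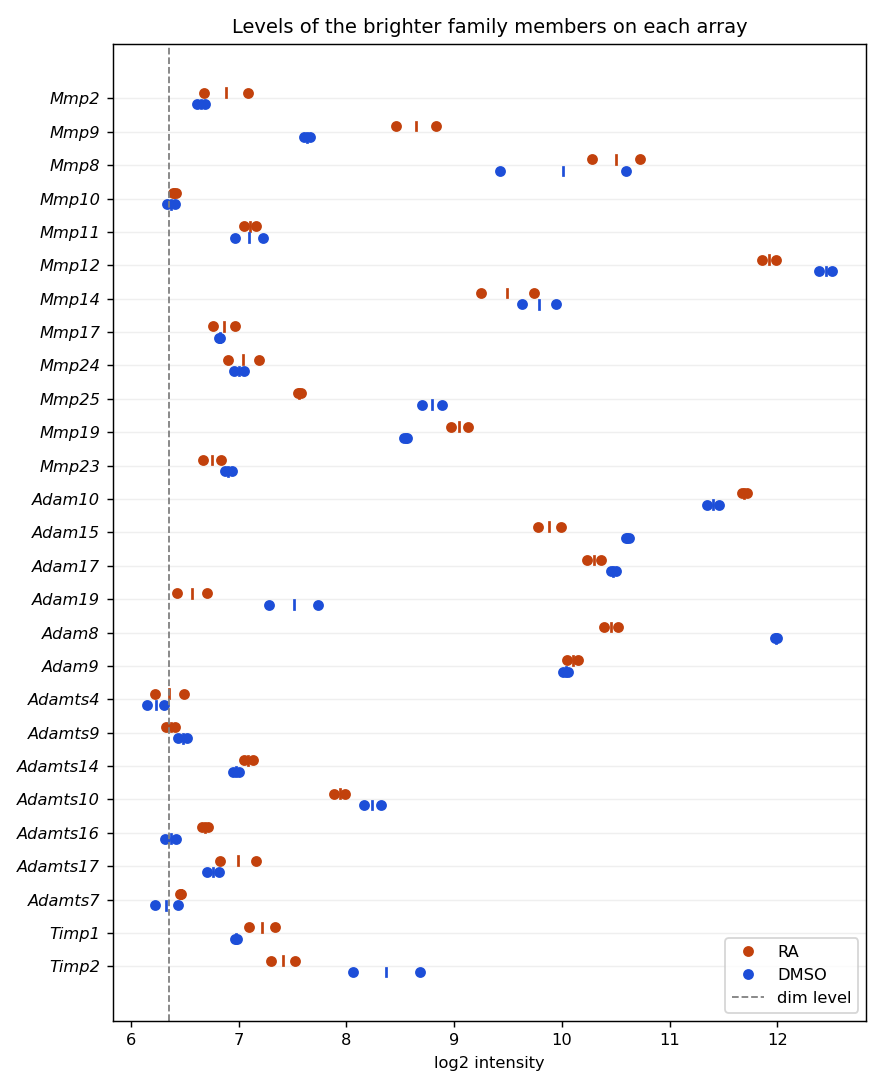
Log2 intensity on each array (points) and group means (ticks) for the 27 member genes whose mean in either group exceeded the dim level (dashed line, 6.35). The RA and DMSO points of Adam8, Mmp25, Mmp9 and Timp2 are set apart, while those of Mmp8 and Mmp14 overlap.

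The promoters of the genes that fell most are shown so that their sequence can be read beside the values. They run from 250 bases before to 50 bases after the start of the gene and come from RefSeq (build GRCm38.p6). RefSeq's table gave 40 promoters for 35 of the 50 member genes, without Mmp9. They were searched on both strands for the AP-1 motif TGANTCA and for the core hexamers of retinoic acid receptor sites AGGTCA and AGTTCA, alone and as direct repeats spaced by 1, 2 or 5 bases. A match would be in capitals. Neither promoter below held one, nor did that of Adam15.
Adam8 (chr7:139992513-139992812, - strand): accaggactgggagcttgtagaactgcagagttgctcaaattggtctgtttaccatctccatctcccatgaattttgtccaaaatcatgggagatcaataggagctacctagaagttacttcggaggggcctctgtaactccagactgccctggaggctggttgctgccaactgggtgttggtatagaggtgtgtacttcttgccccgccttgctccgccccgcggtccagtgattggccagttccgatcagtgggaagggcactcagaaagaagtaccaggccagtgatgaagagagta
Mmp25 (chr17:23645220-23645519, - strand): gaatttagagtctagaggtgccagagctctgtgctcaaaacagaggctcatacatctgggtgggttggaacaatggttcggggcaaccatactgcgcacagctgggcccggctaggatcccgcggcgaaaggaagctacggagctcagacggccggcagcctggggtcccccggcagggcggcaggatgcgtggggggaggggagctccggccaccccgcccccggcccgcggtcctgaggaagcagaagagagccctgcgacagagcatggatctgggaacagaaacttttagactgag
No member promoter held a direct repeat, which were rare in general (0.0822% of 32851 promoters for a spacer of 1 base, 0.0396% for 2 and 0.0396% for 5). The hexamer AGGTCA stood in 6 of the 40 member promoters (15.0%, against 16.3% of all promoters) and AGTTCA in 2 (5.0%, against 14.0%). These windows are short, and the absence of these letters says nothing about binding elsewhere.

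Of the gelatinases, Mmp9 rose and Mmp2 did not pass. Mmp9, gelatinase B, cleaves denatured collagen and collagen IV of basement membranes and is stored in neutrophils. It stood at 8.46 and 8.83 on the RA arrays, against 7.61 and 7.66 on the DMSO arrays (log2 intensity). Both RA arrays were above both DMSO arrays, and the 2 RA arrays differed from each other more than the 2 DMSO arrays did. The rise was 2.01-fold (log2 difference 1.01 ± 0.14, SE, limma adjusted p = 0.0494). It missed the threshold when the arrays were quantile-normalized again (limma adjusted p = 0.0576). Mmp2, gelatinase A, had 7.09 and 6.68 with RA and 6.61 and 6.69 with DMSO. Its groups overlapped, and the log2 difference was 0.23, with a 95% interval from -0.17 to 0.63.

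Mmp12, macrophage elastase, degrades elastin and had the highest intensity of the Mmp probe sets. It read 11.99 and 11.86 with RA, against 12.51 and 12.39 with DMSO. The groups did not overlap, but the log2 difference of -0.52 ± 0.10 did not pass (limma adjusted p = 0.0938). It passed when only probe sets with a single symbol, only those above the dim level, or a variance prior that follows intensity were used (limma adjusted p = 0.0186, 0.0487 and 0.0294). Mmp8, the collagenase of neutrophil granules, had 10.73 and 10.28 with RA and 10.60 and 9.43 with DMSO. The gap of 1.17 between its DMSO arrays was the widest of any member in either group. Its log2 difference was 0.49 ± 0.41 and turned to -0.10 without DMSO replicate 2. Mmp13, Mmp1a and Mmp1b, the other collagenases, were dim on every array. Mmp1a and Mmp1b are close copies whose probes may share targets.

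Among membrane-type enzymes, Mmp25 fell. Mmp25, also named leukolysin, is held on the surface by a lipid anchor and is known mainly from leukocytes. It read 7.58 and 7.55 with RA, against 8.89 and 8.70 with DMSO. The RA arrays were close to each other and well below both DMSO arrays. It was 2.34-fold lower with RA (log2 difference -1.23 ± 0.10, SE, limma adjusted p = 0.0133). Mmp14, the membrane collagenase that activates pro-Mmp2, had 9.74 and 9.25 with RA and 9.95 and 9.63 with DMSO. Its groups overlapped, and the log2 difference was -0.29, with a 95% interval from -0.82 to 0.24. Mmp17 and Mmp24 differed by 0.04 each, and Mmp16 was dim on every array.

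Mmp19, a secreted enzyme that cuts basement membrane components, did not pass either. It read 8.97 and 9.13 with RA, against 8.54 and 8.56 with DMSO. The groups did not overlap, and the log2 difference was 0.50 ± 0.09 (limma adjusted p = 0.094). It passed with the filter to single-symbol probe sets and with that to bright ones (limma adjusted p = 0.0193 and 0.0487). Mmp23 differed by -0.15, and Mmp20, Mmp21, Mmp27 and Mmp28 were dim on every array. Of the stromelysins and matrilysin, Mmp11 was the brightest, at 7.05 and 7.16 with RA and 7.23 and 6.97 with DMSO. Its log2 difference was 0.01 ± 0.12, with a 95% interval from -0.30 to 0.32. The other Mmp11 probe set was dim on every array (log2 difference 0.03 ± 0.08). Mmp3 and Mmp7 were dim, and Mmp10 lay at the dim level, from 6.34 to 6.42.

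Of the Mmp genes, 10 stand side by side on mouse chromosome 9, with no other protein-coding gene between the outermost (RefSeq gene order, assembly GRCm38.p6). In order they are Mmp13, Mmp12, Mmp1b, Mmp3, Mmp1a, Mmp10, Mmp8, Mmp27, Mmp20 and Mmp7. Mmp12 and Mmp8 were above the dim level on all 4 arrays, and the other 8 were not. None of the 10 passed the test.

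**Figure D3:**
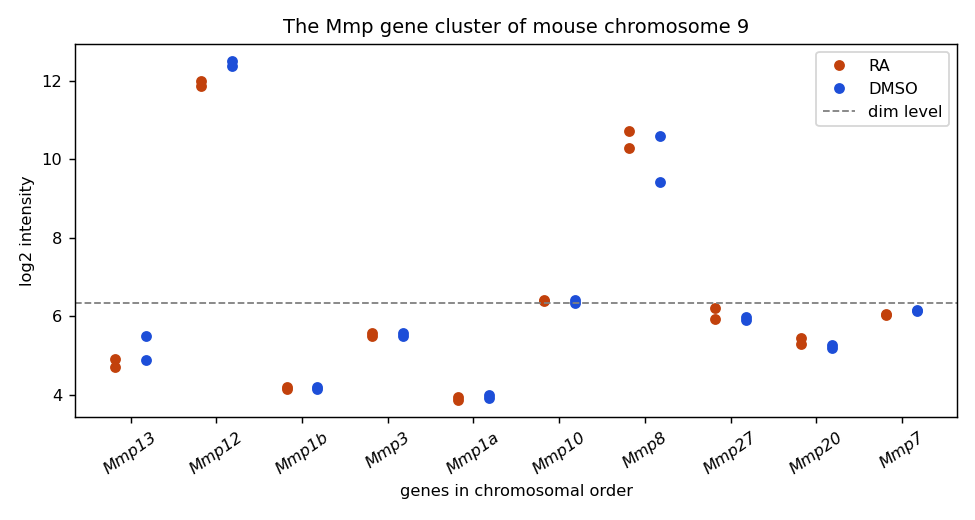
Log2 intensity on each array (points) of the 10 Mmp genes of chromosome 9, in chromosomal order, with the dim level dashed at 6.35. Mmp12 and Mmp8 lie above the dim level on all arrays with both treatments.

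The AP-1 motif, a known element of many Mmp promoters bound by Fos and Jun proteins, was found in the promoters of 8 of these 10 genes. It stood in 8 of their 12 promoter windows, in 1 of the 28 windows of other members (an alternative start of Adam19) and in 7.81% of all 32851 promoters. The division into cluster and other members was made after the levels had been seen. The 47 bases around each match are given below from RefSeq (GRCm38.p6), written 5′ to 3′ on the strand of the gene, with the motif in capitals. Its first base lies between 95 and 35 bases before the start of the gene.
Mmp13 (chr9:7272459-7272505, + strand): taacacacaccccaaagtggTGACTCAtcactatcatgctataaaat
Mmp12 (chr9:7347310-7347356, + strand): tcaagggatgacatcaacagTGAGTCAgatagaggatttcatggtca
Mmp1b (chr9:7388093-7388139, - strand): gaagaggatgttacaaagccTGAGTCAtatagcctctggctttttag
Mmp3 (chr9:7445756-7445802, + strand): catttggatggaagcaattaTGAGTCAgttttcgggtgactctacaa
Mmp1a (chr9:7464048-7464094, + strand): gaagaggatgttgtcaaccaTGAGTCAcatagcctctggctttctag
Mmp10 (chr9:7502259-7502305, + strand): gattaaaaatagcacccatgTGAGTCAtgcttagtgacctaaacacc
Mmp20 (chr9:7628116-7628162, + strand): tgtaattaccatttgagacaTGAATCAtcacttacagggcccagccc
Mmp7 (chr9:7692007-7692053, + strand): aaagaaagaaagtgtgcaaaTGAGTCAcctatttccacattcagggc
The Mmp12 match lies before the downstream one of 2 annotated starts. Mmp7 also has 2, and its match lies in the window of the upstream one only. Among the 8 genes with a match, Mmp12 alone was above the dim level on all arrays, while the promoters of Mmp8 and Mmp27 held no match. The cluster promoters had a GC content of 37.7% to 52.0%, those of the other members 49.3% to 80.0%, and the median over all promoters was 52.7%.

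The 6 Adam genes were all above the dim level on every array. Adam8, a leukocyte metalloprotease and adhesion protein able to shed surface receptors, read 10.39 and 10.52 with RA, against 11.98 and 12.00 with DMSO. The groups were far apart relative to the spread within either. It was 2.90-fold lower with RA (log2 difference -1.54 ± 0.09, SE, limma adjusted p = 0.00631), the largest difference among the members. Without any 1 array the log2 difference stayed between -1.60 and -1.47, and the adjusted p lay between 0.0565 and 0.0752.

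Adam15, which carries an integrin-binding motif, has 2 probe sets. The brighter one read 9.78 and 9.99 with RA, against 10.60 and 10.62 with DMSO, and was 1.66-fold lower (log2 difference -0.73 ± 0.10, SE, limma adjusted p = 0.0482). The dimmer one had 7.82 and 8.11 with RA and 8.06 and 7.93 with DMSO, groups that overlapped (log2 difference -0.03 ± 0.13, limma adjusted p = 0.956). The difference between the probe sets was not tested. The call of the brighter one was lost when the arrays were quantile-normalized again (limma adjusted p = 0.06). Adam19, a sheddase of neuregulins, had 6.71 and 6.43 with RA and 7.74 and 7.28 with DMSO. The groups did not overlap, yet the log2 difference of -0.94 ± 0.19 did not pass (limma adjusted p = 0.115). It passed with the filter to single-symbol probe sets (limma adjusted p = 0.0196). Its second, dim probe set differed by -0.24 ± 0.08 (limma adjusted p = 0.282).

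The widely expressed sheddases Adam10, Adam17 and Adam9 did not pass. Adam10, which cleaves Notch and many surface proteins, read 11.67 and 11.72 with RA, against 11.35 and 11.46 with DMSO. Both RA arrays were higher, with a log2 difference of 0.29 and a 95% interval from 0.07 to 0.51 (limma adjusted p = 0.246). Adam17, the enzyme that releases tumour necrosis factor, had 10.36 and 10.23 with RA and 10.50 and 10.46 with DMSO. The difference was -0.18, with a 95% interval from -0.40 to 0.05. Adam9 differed by 0.06, with a 95% interval from -0.15 to 0.28. These intervals exclude a 2-fold change of Adam9, Adam10 and Adam17 under limma's model but leave room for smaller ones.

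The 18 Adamts genes were mostly dim: 3 lay above the dim level on every array, 4 on some and 11 on none. None passed the test, with log2 differences from -0.30 to 0.32. Adamts10, a protease linked to fibrillin microfibrils, was the brightest, at 7.99 and 7.89 with RA and 8.16 and 8.32 with DMSO. The groups did not overlap (log2 difference -0.30 ± 0.10, limma adjusted p = 0.29). Adamts14, of the procollagen peptidases, had 7.05 and 7.13 with RA and 7.00 and 6.95 with DMSO (log2 difference 0.12 ± 0.08). The other Adamts14 probe set was dim on every array (log2 difference 0.04 ± 0.11). Adamts16 differed by 0.32 ± 0.08 near the dim level (limma adjusted p = 0.201). In the aggrecanase clade, the brightest was Adamts9, at 6.33 and 6.41 with RA and 6.52 and 6.44 with DMSO, which is close to the dim level.

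Of the inhibitors, Timp2 and Timp1 were above the dim level and Timp3 and Timp4 were not. Timp2, which also takes part in the activation of pro-Mmp2 by Mmp14, read 7.30 and 7.52 with RA, against 8.06 and 8.68 with DMSO. The groups did not overlap, but the DMSO arrays had an SD of 0.44. The log2 difference of -0.96 ± 0.23 did not pass (limma adjusted p = 0.163), although it passed with the filter to single-symbol probe sets (0.0359). Timp1, a main inhibitor of Mmp9, had 7.34 and 7.10 with RA and 6.97 and 6.99 with DMSO, a difference of 0.24 with a 95% interval from -0.04 to 0.52. Timp3, at 5.19 and 5.03 with RA and 5.0 and 5.15 with DMSO, and Timp4, at 5.16 and 5.26 with RA and 5.17 and 5.15 with DMSO, were dim throughout.

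Activators, binding partners, substrates and related proteases of these families were read from a list of 59 genes, of which 57 were measured. RA raised 1 and lowered 6, and 50 did not pass. The shares were 1.75% and 10.5%, against 1.28% and 1.79% of all 22180 genes. The list was made with earlier results of these data known. Of its 57 measured genes, 36 lay above the dim level on all arrays, while the 22180 genes were not filtered by level. The shares are therefore a description and not a test of the list. The median log2 difference of the list was -0.043, against 0.009 over all genes. None of the 7 passed with the constant probe sets kept. With 1 array left out, Sdc4 and Ctsl passed without RA replicate 2 alone, and the other 5 in no such fit. Sdc4, Thbs1, Furin, Plau and Plaur were above the dim level on all arrays in both groups.

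Furin, the protease that removes the inhibitory part of membrane-type Mmp, Adam and Adamts enzymes, read 8.98 and 9.09 with RA, against 10.63 and 10.86 with DMSO. It was 3.27-fold lower (log2 difference -1.71 ± 0.11, SE, limma adjusted p = 0.00857). Plau, urokinase, starts the plasmin route that can activate pro-Mmp enzymes, and it read 10.96 and 10.99 with RA, against 11.85 and 11.90 with DMSO (1.86-fold lower, limma adjusted p = 0.0159). Its receptor Plaur read 10.55 and 10.46 with RA, against 11.41 and 11.27 with DMSO (1.78-fold lower, limma adjusted p = 0.0283). In each of these 3 genes both RA arrays were below both DMSO arrays.

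Sdc4, a heparan sulphate proteoglycan whose outer part is shed by metalloproteinases, read 9.43 and 9.62 with RA, against 11.45 and 11.49 with DMSO. It was 3.85-fold lower (log2 difference -1.95 ± 0.10, SE, limma adjusted p = 0.00488). Thbs1, thrombospondin 1, a matrix protein that can hinder activation of Mmp9, read 7.27 and 7.80 with RA, against 8.96 and 8.96 with DMSO (2.68-fold lower, limma adjusted p = 0.0425). It missed the threshold when the arrays were quantile-normalized again (limma adjusted p = 0.0506). Adam23, an Adam protein without protease activity, read 6.02 and 5.91 with RA, against 6.79 and 7.07 with DMSO. Its fall (log2 difference -0.96 ± 0.12, limma adjusted p = 0.0391) is against background, since the RA arrays lay under the dim level.

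The member of the list that rose was Ctsl, cathepsin L, a lysosomal and secreted cysteine protease. It read 11.27 and 11.09 with RA, against 9.16 and 9.19 with DMSO, a 4.01-fold increase (log2 difference 2.00 ± 0.10, SE, limma adjusted p = 0.00488). Other bright cathepsins differed less: Ctsb by 0.39 ± 0.08 (limma adjusted p = 0.12), Ctsd by 0.19 ± 0.10, Ctsz by 0.08 ± 0.08 and Ctss by 0.07 ± 0.09, and none passed. Bsg, an inducer of Mmp synthesis, differed by 0.03 ± 0.09. Cst3, cystatin C, an inhibitor of cathepsins, read 11.53 and 11.31 with RA, against 12.06 and 12.04 with DMSO, and did not pass (log2 difference -0.63 ± 0.10, limma adjusted p = 0.0753).

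**Figure D4:**
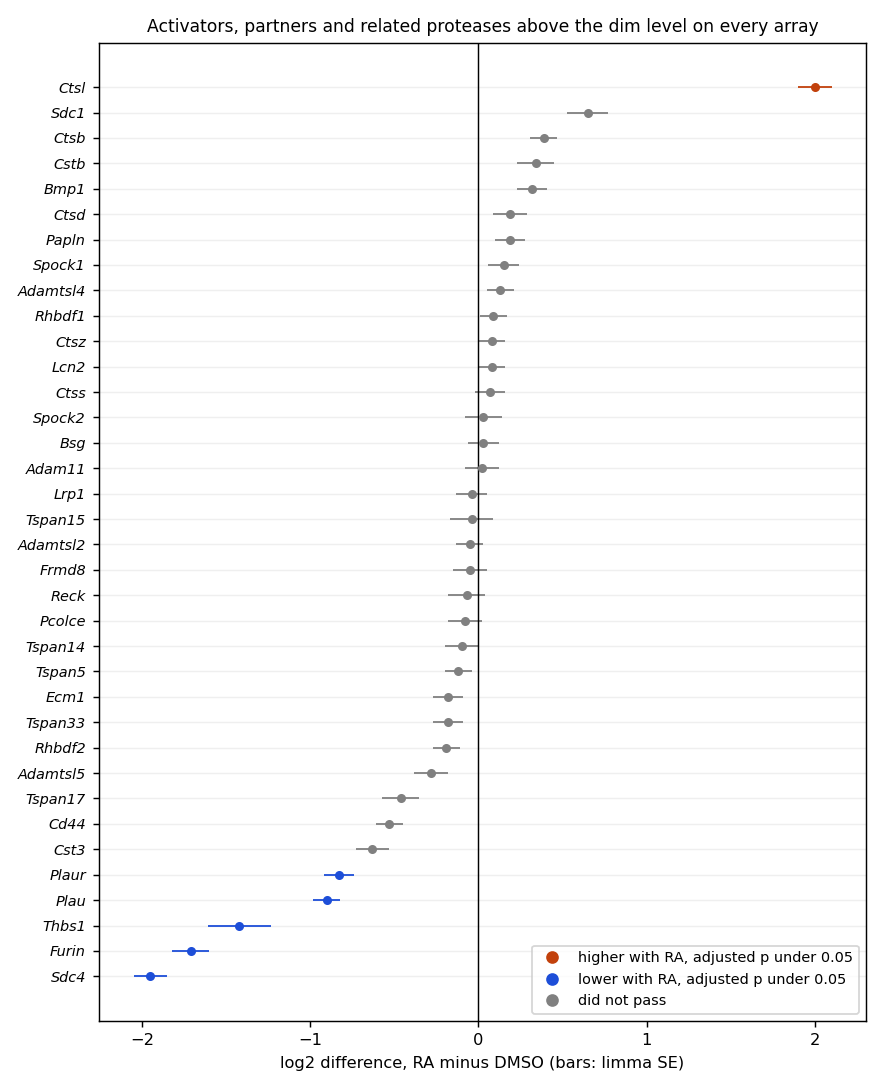
Log2 difference, RA minus DMSO (points, with limma's standard error, n = 2 arrays each), of the 36 listed activators, partners and related proteases above the dim level on all arrays. Ctsl is the single gene marked as higher and Sdc4, Furin, Thbs1, Plau and Plaur are marked as lower. Adam23, which also passed as lower, was not above the dim level on all arrays and is not drawn.

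Marker lists of several cell types and states were read beside the members. Whether the markers are particular to their cell type in these cultures was not tested. In a bulk sample, fewer cells of a type and less RNA per cell cannot be told apart. Of 11 neutrophil markers, 10 were above the dim level on every array and the exception, Ly6g, read 6.66 and 6.18 with RA and 6.26 and 6.40 with DMSO. Their summed intensity was 20328 and 19546 with RA, against 19931 and 20998 with DMSO. Cxcr2 passed as lower (log2 difference -1.15 ± 0.10, limma adjusted p = 0.0167) and the other 10 did not pass. Nearest to the threshold among these was Prtn3, a serine protease of neutrophil granules, at 11.83 and 11.66 with RA, against 10.93 and 11.11 with DMSO (log2 difference 0.73 ± 0.11, limma adjusted p = 0.0601). Mmp8, Mmp9 and Mmp25 are also genes of neutrophils, and the part of such cells in their values was not tested.

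Of 7 osteoclast markers, Acp5 rose (log2 difference 3.39 ± 0.10, limma adjusted p = 0.00205), while Ocstamp and Dcstamp, which drive cell fusion, fell (-1.09 ± 0.10 and -1.78 ± 0.13, limma adjusted p = 0.0174 and 0.0103). Their summed intensity was 4454 and 4572 with RA, against 3758 and 3799 with DMSO, and Calcr was dim on every array. Acp5 outweighed the falls in this sum, at 10.58 and 10.65 with RA, against 7.12 and 7.31 with DMSO (log2 intensity). The sum is therefore not a rise of the list as a whole. Of the markers that did not pass, Atp6v0d2 differed by 0.85 ± 0.14, Calcr by 0.14, Ctsk by -0.14 and Nfatc1 by -0.04. Macrophage markers summed to 13225 and 12489 with RA, against 8889 and 8973 with DMSO, with 2 of 7 higher (C1qb and C1qc). Mertk, Adgre1, C1qa and Cd68 differed by 1.04, 0.63, 0.61 and 0.20, and none of them passed. Cd163 was dim on every array and differed by -0.08. Dendritic cell markers summed to 13656 and 13025 with RA, against 24703 and 24573 with DMSO, with 3 of 7 lower (H2-Ab1, Zbtb46 and Ciita). Such sums are weighted to bright probe sets, here H2-Ab1, at 11.78 and 11.77 with RA and 13.34 and 13.28 with DMSO (log2 intensity). Cd209a differed by 0.05 and its groups overlapped. Mmp9, Mmp12, Mmp25 and the Adam genes are made by more than 1 of these cell states, and the part of such states in their values was not tested.

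Of 8 fibroblast and stroma markers, none passed and 4 were dim on every array, among them Dcn and Lum. Their summed intensity was 606 and 670 with RA, against 617 and 609 with DMSO. The arrays show cells after 24 h of culture, not freshly sorted ones. Among 8 measured Ly6C-high monocyte markers, 7 were above the dim level on every array. The exception, F13a1, fell under it with RA and alone passed (log2 difference -2.00 ± 0.09, limma adjusted p = 0.00431). Ly6c2, Ccr2, Csf1r and Vcan differed by -0.19, -0.34, -0.01 and -0.83. Cd14, Fcgr1 and Itgam differed by 0.29, 0.60 and 0.66. Single markers of B cells (Cd79b, log2 difference 0.65, limma adjusted p = 0.0471) and eosinophils (Siglecf, 0.61, limma adjusted p = 0.0488) rose, both just under the threshold. The other measured B cell markers, Cd79a and Ms4a1, differed by 0.19 and -0.18, and neither passed. Of the other eosinophil markers, Prg2, Epx and Ccr3 differed by 0.03, 0.25 and -0.07, and none passed.

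Median intensities of the arrays over tested probe sets were 80.0 and 81.8 with RA and 81.3 and 81.2 with DMSO. Over these probe sets, log2 values correlated at 0.9931 between the RA arrays, at 0.9943 between the DMSO arrays and at 0.9841 to 0.9879 between treatments (Pearson's r, across probe sets that are not independent). Of the variance, 62.1% lay on the first principal component and 23.9% on the second. With 2 arrays against 2, the smallest p of an exact permutation test is 0.333, and all p-values here come from limma's model.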

How the data were processed

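Total RNA of 2 RA and 2 DMSO samples was labelled with the Affymetrix WT PLUS kit from 250 ng of RNA, per the labels' protocols. Each array has 1 intensity for each probe set in the table that the authors deposited. Affymetrix Expression Console with RMA made these values, per the submitters' processing notes (background correction, quantile normalization and summary). The tool version and genome build are not given in the sources used here. Deposited intensities, on a linear scale, were transformed to log2 here. RMA compresses differences of dim genes, and the number of arrays limits the precision.

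Gene names came from the platform annotation (25335 of 41345 probe sets, 23521 with 1 symbol, 1814 with several, 16010 unnamed here). All 56 member probe sets were found in RefSeq's gene table, with no symbol changed. Where a gene has several probe sets, the one brightest on average stands for it. In R 4.3.3, limma 3.58.1 (lmFit, then eBayes) compared RA with DMSO on 39720 probe sets, two-sided, with Benjamini-Hochberg adjustment over all of them and a threshold of 0.05. Left out were 1625 probe sets with 1 constant value on all arrays, 1624 of them at the lowest intensity and none with a single symbol. Their zero variance lowers limma's prior degrees of freedom to 0.898, against 2.76 without them. The procedure was run on data simulated from limma's own model, which cannot show how well that model holds for these arrays. Alternatives were filters, normalization, variance priors, replicate blocks and leaving out each array. The members, lists and this choice of probe sets were made with earlier results of these data known. Values are given for every member that passed, for Mmp9, for the Timp genes and for the brightest of each role, and partner genes are named when they passed, with bright ones that did not.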

Additional observations from a re-analysis of the deposited data

How the results depend on the processing

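Every count rests on leaving out the constant probe sets. With them kept, limma called 0 of the 56 member probe sets, 0 partner genes and 0 of all probe sets (smallest adjusted p = 0.0535), with 6260 at an unadjusted p under 0.05, 14 of them members (12 members with them left out). With only single-symbol probe sets, 2 member probe sets (2 genes) were higher and 6 lower (6 genes), 3 partner genes were higher, and 757 and 879 probe sets in all. Above the dim level, 2 member probe sets (2 genes) were higher, and 554 probe sets in all. With quantile normalization again, 0 members were higher. An intensity trend gave 2 partner genes higher. Without any 1 array, 0 members passed in either direction, 0 to 1 partner genes were higher and 0 to 1 lower, and all probe sets ranged from 12 to 30 higher and 13 to 25 lower. Without 1 array, the sign of the difference turned in at least 1 fit for 17 of the 56 member probe sets, and for none of the 4 that passed nor of the 7 partner genes that passed. In the other settings it turned for 2 member probe sets, neither of which passed. Of the members followed singly, Mmp11 ranged from -0.13 (without DMSO replicate 2) to 0.14, with -0.05 without RA replicate 2, Mmp8 from -0.10 (without DMSO replicate 2) to 1.07, Timp3 from -0.04 (without RA replicate 1, and without DMSO replicate 1) to 0.12, and Timp4 from -0.001 (without RA replicate 2) to 0.09.

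Replicate numbers are shared by the labels. The deviations of same-numbered arrays from their group means had a weak negative correlation (-0.251, across probe sets that are not independent). This cannot settle whether the numbers mark pairs, and they are not taken as pairs. With the replicate block, Adam8 passed (limma adjusted p = 0.0442) and Mmp25, Mmp9 and Adam15 did not (0.0651, 0.106 and 0.142), so that 0 members were higher and 1 lower (1 gene), with 2 partner genes lower, and 73 and 88 probe sets higher and lower in all. With the crossed replicate block, chosen after seeing the data, 0 members were higher, 2 lower (Adam8 and Mmp25), and 194 and 263 in all.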
